A study of Mus musculus with 6 samples.

Results

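Mouse chromosome 8 held 12157 of the 183983 regions in 4 deposited peak lists, which map WDR5 and the histone mark H3K4me3 in embryonic stem cells. Its members are every region on chromosome 8: 971 of 11095 in the WDR5 list of the WT line, 1838 of 26888 in the WDR5 list of the mutant line, and 4633 of 71695 and 4715 of 74305 in the H3K4me3 lists of the WT and mutant line. Chromosome 8 was chosen from the number of regions per chromosome in these same lists, so those numbers are given as a description, with no test. The cells are Rx:GFP knock-in mouse embryonic stem cells grown in 2i+LIF. All of them lack endogenous Wdr5 and p53, and they carry either WDR5WT (the WT line; WT rescue in the plots) or WDR5S91KY191F (the mutant line; mutant rescue in the plots), a WDR5 with the substitutions S91K and Y191F. Each line gave 1 WDR5 and 1 H3K4me3 library, so the lines are compared without replicates and with no p-value. The 2 input libraries, one per line, were not analysed here, and line differences cannot be told apart from differences between libraries. Whether each line is 1 clone is not given in the sources used here. Depth is unknown, since the lists hold no read totals, and the number of regions depends on it.

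WDR5 is a WD-repeat protein that forms part of the core of the KMT2/SETD1 complexes, the enzymes that methylate lysine 4 of histone H3, and it is also found outside them. H3K4me3 marks the promoters of active genes and, in embryonic stem cells, those of many silent developmental genes. Gain of chromosome 8 is a known change of mouse embryonic stem cells in culture. Peak lists carry no copy number, so the number of copies of chromosome 8 in these lines was not tested. An H3K4me3 region lay at 9 of 10 embryonic stem cell marker genes in both lines, with no region at the ends of Esrrb, and at 4 and 3 of 8 fibroblast marker genes, with none at Col3a1, Dcn, Lum or Postn, where 69.9% and 69.1% of autosomal protein-coding genes had one in the WT and mutant line. A peak list shows the mark at these genes and not their expression.

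The promoters below are those of chromosome 8 genes that carried a WDR5 region in both lines, chosen for their folds or their roles. Each runs from 250 bases before to 50 bases after an annotated start, 5′ to 3′ on the gene's strand, from RefSeq and in GRCm38.p6 (mm10) coordinates. Capitals mark the letters CACGTG (an E-box), CCGGAAG (an ETS-type motif) or AAGATGGC (a YY1-type motif) on either strand. Rpl13 encodes a protein of the large ribosomal subunit, and its window is chr8:123102100-123102399 on the plus strand. Cog4, a Golgi trafficking gene that shares its promoter with the splicing factor gene Sf3b3, has its window at chr8:110846774-110847073 on the plus strand. Kars encodes lysyl-tRNA synthetase and is read from the minus strand at chr8:112011305-112011604. Tfdp1 encodes the dimer partner of E2F factors, at chr8:13338501-13338800 on the plus strand. Cdt1 encodes a factor that licenses replication origins, at chr8:122567765-122568064 on the plus strand. Some of these WDR5 regions were weak, with a −log10 q of 0 at Kars in the WT line and 0.475 at Tfdp1 in the mutant line.
Rpl13: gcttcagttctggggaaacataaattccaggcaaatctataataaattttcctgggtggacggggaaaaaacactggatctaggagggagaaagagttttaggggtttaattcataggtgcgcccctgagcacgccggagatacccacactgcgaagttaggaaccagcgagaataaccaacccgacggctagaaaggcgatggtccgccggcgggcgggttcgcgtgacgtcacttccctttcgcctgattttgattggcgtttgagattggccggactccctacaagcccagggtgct
Cog4: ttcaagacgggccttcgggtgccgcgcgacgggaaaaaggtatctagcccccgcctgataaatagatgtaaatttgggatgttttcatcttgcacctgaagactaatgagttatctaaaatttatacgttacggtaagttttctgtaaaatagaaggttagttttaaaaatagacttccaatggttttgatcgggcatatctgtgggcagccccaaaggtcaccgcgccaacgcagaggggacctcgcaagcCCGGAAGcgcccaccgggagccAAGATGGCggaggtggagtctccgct
Kars: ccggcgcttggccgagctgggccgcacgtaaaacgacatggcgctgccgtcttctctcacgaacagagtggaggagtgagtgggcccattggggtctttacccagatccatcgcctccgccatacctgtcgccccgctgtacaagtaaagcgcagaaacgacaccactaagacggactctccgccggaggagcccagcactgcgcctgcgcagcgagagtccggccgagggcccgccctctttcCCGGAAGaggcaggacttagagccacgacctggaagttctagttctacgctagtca
Tfdp1: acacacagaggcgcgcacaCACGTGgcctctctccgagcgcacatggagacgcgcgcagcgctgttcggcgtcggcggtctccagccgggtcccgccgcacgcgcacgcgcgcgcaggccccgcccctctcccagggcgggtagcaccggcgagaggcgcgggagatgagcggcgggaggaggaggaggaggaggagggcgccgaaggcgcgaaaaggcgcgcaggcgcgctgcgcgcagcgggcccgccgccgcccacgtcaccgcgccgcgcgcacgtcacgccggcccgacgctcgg
Cdt1: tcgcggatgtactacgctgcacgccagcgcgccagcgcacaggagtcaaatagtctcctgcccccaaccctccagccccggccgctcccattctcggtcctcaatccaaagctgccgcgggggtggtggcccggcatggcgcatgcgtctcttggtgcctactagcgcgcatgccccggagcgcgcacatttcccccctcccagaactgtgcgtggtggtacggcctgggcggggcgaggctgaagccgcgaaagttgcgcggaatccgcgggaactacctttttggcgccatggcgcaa
The Cog4 window held CCGGAAG and AAGATGGC, that of Kars held CCGGAAG and that of Tfdp1 held CACGTG. None of these motifs was found in the windows of Rpl13 and Cdt1, nor in a second window of Cog4, at chr8:110846350-110846649, and of Tfdp1, at chr8:13338554-13338853, that also had WDR5 in both lines. Of the 32 promoter windows of chromosome 8 with a WDR5 region in both lines, from 27 genes, 6 (18.8%) held CCGGAAG, against 8.86% of all 32851 promoters in the table. CACGTG was in 2 of the 32 (6.25%), against 7.15% of all promoters, and AAGATGGC in 1 (3.13%), against 2.75%. Among the 448 promoters of all chromosomes with a WDR5 region in both lines, CCGGAAG was in 25.4%, CACGTG in 18.5% and AAGATGGC in 5.80%. CCGGAAG was also in 16.2% of all promoters with H3K4me3 in both lines. A match here is a description of the letters only.

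The promoters of chromosome 8 differed in base composition by what they carried. The median content of C and G was 64.8% in the 32 windows with WDR5 in both lines, 66.7% in the 91 with WDR5 in the WT line only and 64.7% in the 40 with WDR5 in the mutant line only. It was 60.7% in the 565 windows with H3K4me3 in both lines and no WDR5, and 48.0% in the 662 windows with no region. The median number of CG dinucleotides was 28 in each of the WDR5 classes, 19 with H3K4me3 alone and 3 with no region.

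Regions were denser on chromosome 8 than on most autosomes. The chromosome makes up 5.26% of the autosomal span and holds 5.05% of the protein-coding genes of the 19 autosomes. In the WDR5 list of the WT line it held 8.87% of the autosomal regions (95% exact binomial interval 8.35 to 9.42), and in that of the mutant line 6.89% (6.59 to 7.20). For H3K4me3 the shares were 6.69% (6.51 to 6.88) in the WT line and 6.57% (6.39 to 6.76) in the mutant line. These intervals are Clopper-Pearson intervals and cover counting error only. In WDR5 regions per Mb, chromosome 8 was the highest autosome in both lists. It held 7.51 per Mb in the WT line, where the other 18 autosomes ran from 3.35 to 6.51 with a median of 3.99, and 14.2 in the mutant line, where they ran from 8.41 to 12.1 with a median of 10.7. In H3K4me3 regions chromosome 11 was denser in both lines, at 39.1 and 41.1 per Mb, against 35.8 and 36.5 on chromosome 8. Set against the other autosomes pooled, the density on chromosome 8 was 1.76 and 1.33 times theirs for WDR5 and 1.29 and 1.27 times for H3K4me3. The plot of density by autosome shows these orders.

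**Figure D1:**
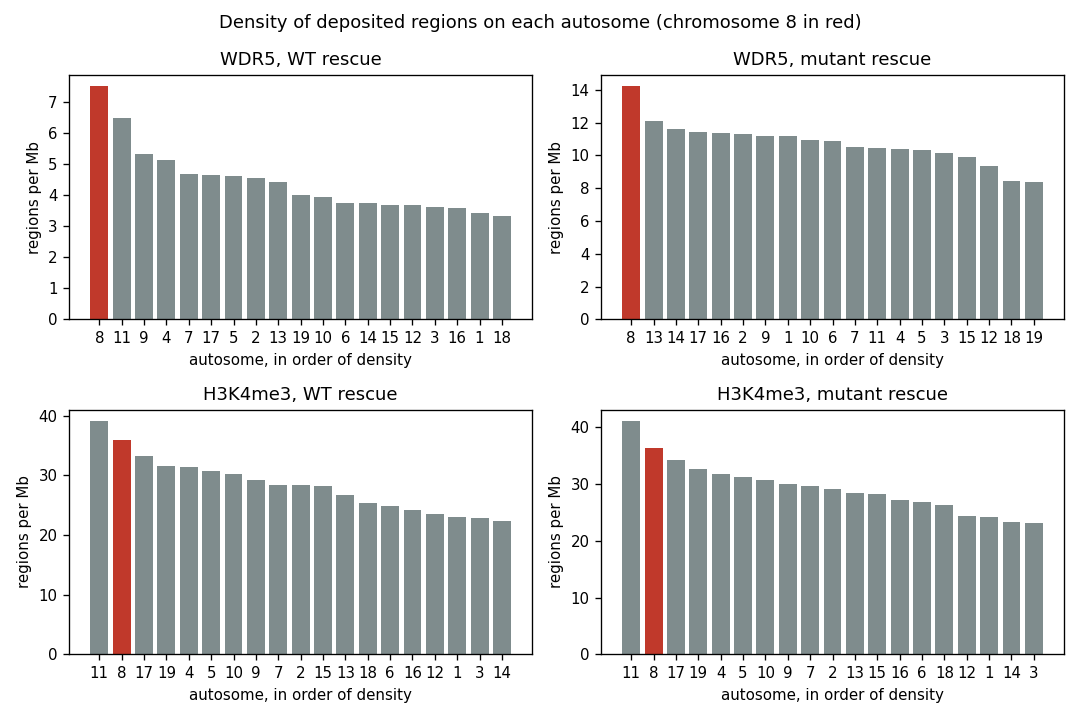
Regions per Mb (vertical axis) on each of the 19 autosomes (horizontal axis, in order of density) in each of the 4 lists, with chromosome 8 in red and 1 library per panel. Chromosome 8 stands first in both WDR5 panels, at 7.51 and 14.2 regions per Mb, and behind chromosome 11 for H3K4me3.

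Per protein-coding gene the order differed. Chromosome 8 held 0.931 WDR5 regions per gene in the WT line, above the highest other autosome at 0.650 (chromosome 12). Its mutant line value was 1.76 per gene, below chromosome 1 at 1.81. The X chromosome, which is not among the autosomes above, stood far lower, with 68 and 104 WDR5 regions (0.398 and 0.609 per Mb) and 13.0 and 13.6 H3K4me3 regions per Mb. Covered length gave the same first place to chromosome 8 for WDR5. WDR5 regions covered 0.187% of its span in the WT line and 0.326% in the mutant line, where the highest other autosomes reached 0.166% and 0.286%.

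The regions of chromosome 8 were also low in fold over background, which is the authors' own value for each region. The median fold of its WDR5 regions was 2.47 in the WT line, with the other autosomes between 2.64 and 2.80, and 2.36 in the mutant line, with the others between 2.49 and 2.54. For H3K4me3 the medians were 4.43 (others 4.62 to 5.14) and 4.004 (others 4.06 to 4.36). Chromosome 8 therefore had the lowest median fold of the 19 autosomes in each of the 4 lists. The gap in the H3K4me3 list of the mutant line was small, at 4.004 against 4.06. Region widths did not set chromosome 8 apart. Median widths were 208 and 201 bp for WDR5 and 703 and 702 bp for H3K4me3, all inside the range of the other autosomes.

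Sorting the regions by fold showed where the surplus of chromosome 8 lay. Among the WDR5 regions of the WT line with a fold below 2, chromosome 8 held 73 of the autosomal total, a share of 16.4% (13.1 to 20.2). Its share was 13.3% (12.1 to 14.5) at folds of 2 to 2.5, 7.74% (6.95 to 8.60) at 2.5 to 3, and 4.34% (3.61 to 5.18) at 3 to 5. At a fold of 5 and above it held 13 regions, or 4.63% (2.49 to 7.78). The share thus fell from above the 5.26% of the span at low folds to below it at folds of 3 to 5, with an interval that spans 5.26% at the highest folds. The same classes of the mutant line gave 21.2% (18.8 to 23.8; 228 regions), 7.91% (7.43 to 8.40), 5.04% (4.61 to 5.49), 4.33% (3.66 to 5.08) and 3.28% (1.71 to 5.66; 12 regions). A dense stretch near 20 Mb, described further on, held 19 and 35 of the regions with a fold below 2, and without it the shares of that class were 12.7% and 18.5%. For H3K4me3 the shares stayed above 5.26% in all 5 classes of both lines. They were 6.72% below a fold of 2 and 6.23% at 5 and above in the WT line, and 7.77% and 6.09% in the mutant line.

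**Figure D2:**
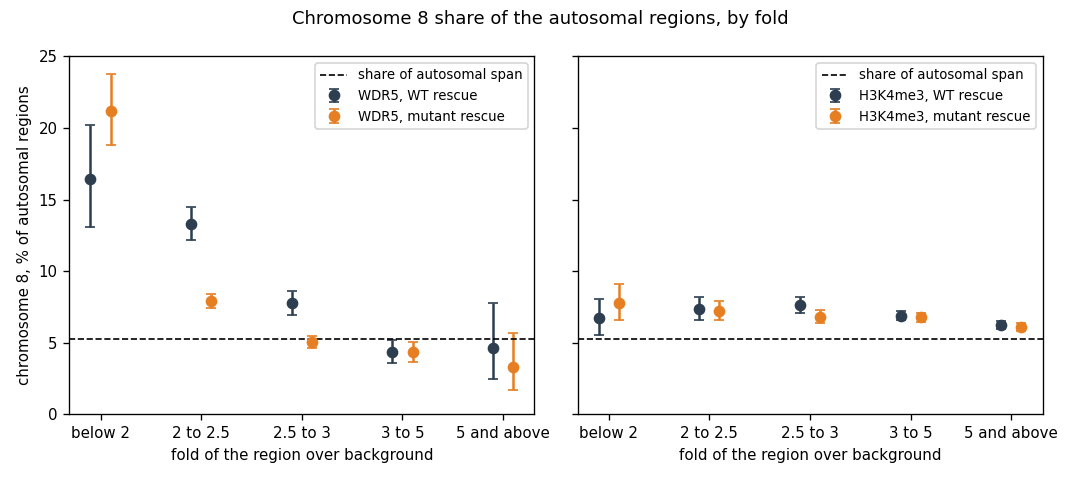
Share of autosomal regions that lie on chromosome 8 (vertical axis, %) by the fold of the region over background (horizontal axis, 5 classes), for WDR5 at left and H3K4me3 at right. Points are single libraries, bars are exact 95% binomial intervals and the dashed line is the 5.26% of the autosomal span, which the WDR5 points cross as fold rises, from 16.4% and 21.2% below a fold of 2 to 4.63% and 3.28% at 5 and above.

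Fold was then compared among regions of like significance, those with a −log10 p of 2 to 3. On chromosome 8 the median fold of such WDR5 regions was 2.18 in the WT line (318 regions) and 2.08 in the mutant line (649 regions). The other autosomes ran from 2.25 to 2.35 and from 2.19 to 2.26, so chromosome 8 stood below all 18 of them in both WDR5 lists. For H3K4me3 the value was 2.20 in the WT line, with the lowest other autosome at 2.14, and 2.28 in the mutant line, with the lowest at 2.19. The X chromosome, with only 12 and 34 such WDR5 regions, was at 2.04 and 2.11. Coverage along the chromosomes and the input of each line were not analysed here, and their part in these folds was not tested.

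By significance the surplus took another shape. In the WT line chromosome 8 held 9.83% of the autosomal WDR5 regions with a −log10 p of 2 to 3, 8.10% at 3 to 5 and 9.50% at 5 and above. The shares in the mutant line were 6.62%, 6.68% and 9.08%. Without the dense stretch near 20 Mb, the shares at 5 and above were 7.57% in the WT line and 7.21% in the mutant line. Of the chromosome 8 WDR5 regions, 102 (10.5%, 8.65 to 12.6) had a −log10 q of at least 2 in the WT line, where the whole list had 10.8%. In the mutant line 120 (6.53%, 5.44 to 7.76) did, where the whole list had 4.83% and the other autosomes together 4.51%. For H3K4me3, 4324 of 4633 (93.3%) and 4246 of 4715 (90.1%) passed, beside 94.0% and 90.7% of the whole lists. The significant WDR5 regions were not spread evenly along the chromosome, as the next values show.

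A single stretch near 20 Mb held a large part of them. Neighbouring WDR5 regions at a −log10 q of 2 or more, taken from both lines together, were joined where they lay no more than 200 kb apart, a rule chosen after the values were seen. On chromosome 8 this gave a run of 83 regions at chr8:19685888-20988822, and on the other autosomes no run held more than 35. With a gap of 50 kb the longest run of chromosome 8 held 31 regions, and one on chromosome 9 held 32. The stretch held 40 of the 102 significant regions of the WT line (39.2%) and 43 of the 120 of the mutant line (35.8%). Without it, 6.77% and 4.38% of the chromosome 8 WDR5 regions passed the same threshold. Its own share of all WDR5 regions was small, at 55 of 971 and 81 of 1838.

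Pseudogenes make up most of the annotation of this stretch. Of its 31 annotated genes, 9 are protein-coding, 4 are long non-coding RNAs, 15 are pseudogenes and 3 are transcribed pseudogenes. They include 4930467E23Rik, 9530057J20Rik, Gm15319, Gm40469 and Gm21119 among the protein-coding genes and Gm10060, 6820431F20Rik and 2610005L07Rik among the pseudogenes. How reads that match several places were handled is not given in the sources used here, and its part in these regions was not tested. The WDR5 regions there had median folds of 2.33 and 2.09, below the medians of the whole chromosome, although 40 of 55 and 43 of 81 had a −log10 q of at least 2. The H3K4me3 regions, 167 and 171 in number, included the most significant of the chromosome. One at chr8:20122236-20123235 had a −log10 p of 9681 and a fold of 24.9 in the WT line, and its counterpart in the mutant line had 10084 and 25.02. Another beside Gm10060, at chr8:19784465-19785362, had a −log10 p of 9446 and 9665 and a fold of 27.0 and 25.8. Both were among the 10 most significant regions of their whole lists. Of the significant WDR5 regions of the stretch, 28 of 40 and 28 of 43 lay on an H3K4me3 region of the same line, and 10 and 8 were overlapped by a WDR5 region of the other line.

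Counts by 5 Mb bin showed high numbers along most of the chromosome. Chromosome 8 has 25 full bins, set here beside the 458 full bins of the other autosomes that hold an H3K4me3 region. The median bin held 32 WDR5 regions in the WT line, against 19 elsewhere, and 24 of the 25 bins were above that 19. Only 7 were above the 90th percentile of the other bins, 38.3 regions. In the mutant line the median bin held 74 against 53.5, with 22 bins above 53.5 and 15 above the 90th percentile of 70.0. H3K4me3 gave 187 against 123 in the WT line and 191 against 123.5 in the mutant line, with 16 and 17 bins above the median elsewhere and 5 above the 90th percentile in each. The plot of regions by bin shows these counts along the chromosome.

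**Figure D3:**
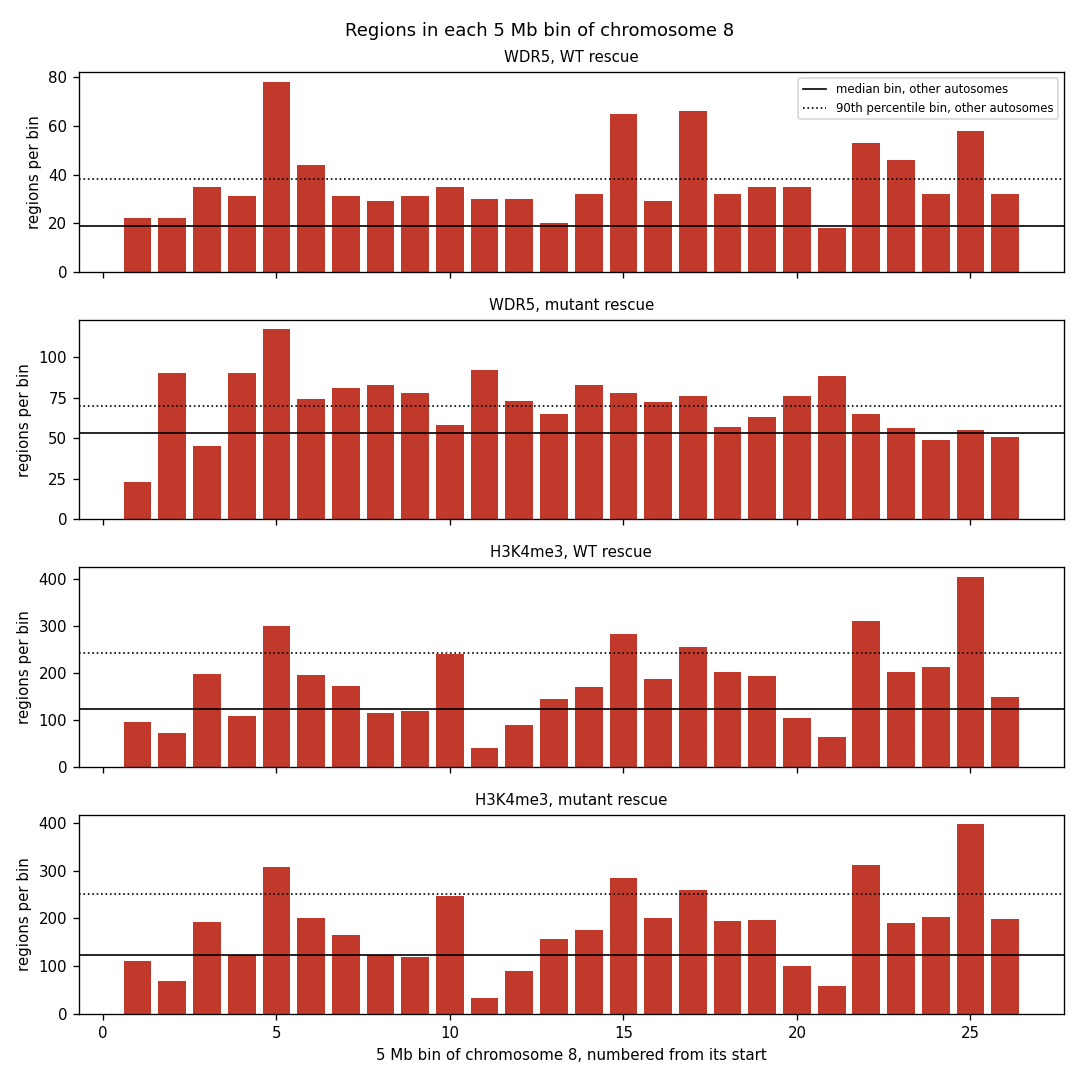
Number of regions (vertical axis) in each of the 26 bins of 5 Mb along chromosome 8 (horizontal axis, numbered from its start; bin 26 is not full) in each of the 4 lists, 1 library each. Lines give the median and the 90th percentile of the full bins of the other autosomes: for WDR5 in the WT line 24 of 25 full bins stand above the median of 19, and bin 5 is the highest of both WDR5 lists at 78 and 117.

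Bin 5, from 20 to 25 Mb, held the most WDR5 regions in both lines, 78 in the WT line and 117 in the mutant line, of which 37 and 44 had a −log10 q of at least 2. It contains 82 protein-coding genes and most of the stretch described above. After it the WT line had its highest counts in bins 17, 15, 25 and 22, with 66, 65, 58 and 53 regions, each of them with 66 or more genes. The mutant line differed in this respect. Its next bins were 11, with 92 regions and 9 genes, and bins 2 and 4, with 90 regions each and 6 and 26 genes. The H3K4me3 lists had the most regions in bin 25 (405 and 397, 90 genes) and the fewest in bin 11 (40 and 33).

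Bins were then matched by gene number. In the 2 bins of chromosome 8 with at most 10 genes, the median was 26 WDR5 regions in the WT line and 91 in the mutant line, against 7 and 48 in the 53 such bins elsewhere. In the 9 bins with 11 to 30 genes it was 30 and 78, against 15 and 52. In the 9 bins with 31 to 60 genes it was 35 and 57, against 24 and 54, the smallest excess of the mutant line. In the 5 bins with 61 genes or more it was 65 and 76, against 35 and 56.5. The ratio to the other autosomes was largest for the WT line in gene-poor bins, at 3.71. For H3K4me3 the same ratio ran from 1.15 to 1.42 in the WT line and from 1.09 to 1.40 in the mutant line.

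The lower fold at like significance was found in most bins of the WT line and in every full bin of the mutant line. In the mutant line the median fold of WDR5 regions with a −log10 p of 2 to 3 was below the 2.25 median of the other bins in 25 of 25 bins, and below their 10th percentile of 2.11 in 18. In the WT line it was below the median of 2.31 in 22 bins and below the 10th percentile of 2.12 in 9, while bins 9, 11 and 21 were at 2.354, 2.311 and 2.403. The bins of chromosome 8 ran from 2.01 to 2.22 in the mutant line and from 1.92 to 2.40 in the WT line.

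**Figure D4:**
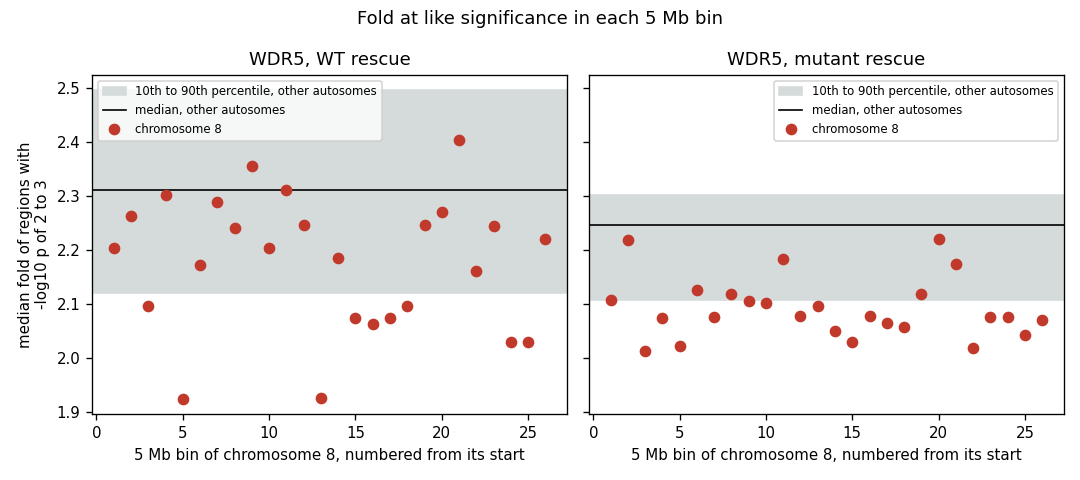
Median fold of WDR5 regions with a −log10 p of 2 to 3 (vertical axis) in each 5 Mb bin of chromosome 8 (horizontal axis, numbered from its start), with the WT line at left and the mutant line at right, 1 library each. The grey band spans the 10th to the 90th percentile of the bins of the other autosomes and the line is their median, below which 22 of 25 full bins lie in the WT line and 25 of 25 in the mutant line.

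Between the lines, the number of WDR5 regions on chromosome 8 rose less than elsewhere. It was 1838 in the mutant line against 971 in the WT line, a ratio of 1.89, while the other autosomes together had a ratio of 2.49. The ratio of chromosome 8 was the second lowest of the 19 autosomes, above chromosome 11 at 1.60 and far below chromosome 1 at 3.25. Relative to the other autosomes it was 0.759 (0.702 to 0.822, counting error only). Among regions at a −log10 q of 2 or more it was 1.08, with an interval of 0.824 to 1.42 that holds 1. H3K4me3 regions had a ratio of 1.02 on chromosome 8 and 1.04 elsewhere.

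Few WDR5 regions of chromosome 8 were overlapped by a WDR5 region of the other line. Of those in the WT line 104 of 971 were (10.7%, 8.84 to 12.8), beside 12.3% of the whole list, and of those in the mutant line 103 of 1838 (5.60%, 4.60 to 6.76), beside 5.09%. H3K4me3 regions were mostly shared, 3662 of 4633 (79.0%, 77.8 to 80.2) beside 80.7% of the whole list in the WT line, and 3652 of 4715 (77.5%, 76.2 to 78.6) beside 77.7% in the mutant line. Among WDR5 regions at a −log10 q of 2 or more, 40 of 102 (39.2%, 29.7 to 49.4) were overlapped in the other line, while on the other autosomes 53.4% (50.3 to 56.5) were. The mutant line values were 43 of 120 (35.8%, 27.3 to 45.1) and 51.0% (48.1 to 54.0). The stretch near 20 Mb held much of this difference, since 10 of its 40 such regions in the WT line and 8 of its 43 in the mutant line were overlapped. Without it the shares were 30 of 62 (48.4%, 35.5 to 61.4) and 35 of 77 (45.5%, 34.1 to 57.2), whose intervals hold the values of the other autosomes.

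WDR5 regions of chromosome 8 lay on an H3K4me3 region of the same line in 414 of 971 cases in the WT line (42.6%, 39.5 to 45.8), beside 46.0% of the whole list, and in 248 of 1838 in the mutant line (13.5%, 12.0 to 15.1), beside 12.3%. Both kinds were denser than on the other autosomes. In the WT line the density on chromosome 8 was 1.62 times that of the other autosomes for WDR5 regions on H3K4me3 and 1.87 times for those off it. The factors in the mutant line were 1.51 and 1.31. By place, WDR5 regions of the WT line outside protein-coding genes had the highest factor, 2.30, against 1.41 for those inside a gene and 1.55 for those within 1 kb of a gene end. Those of the mutant line were 1.49, 1.12 and 1.30. H3K4me3 regions had a factor of 1.09 at gene ends in both lines, and 1.44 and 1.40 inside genes.

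At the level of genes, 270 of the 1043 protein-coding genes of chromosome 8 (25.9%, 23.2 to 28.7) had a WDR5 region within 1 kb of either annotated gene end in the WT line, where 17.2% of the 20665 autosomal genes did. In the mutant line 159 (15.2%, 13.1 to 17.6) did, where 11.2% of autosomal genes did. Both shares were the highest of the 19 autosomes, with the next at 21.5% and 14.2%. A WDR5 region near either gene end was found in both lines at 75 genes, which are 27.8% of the 270 and 47.2% of the 159. Over all autosomes the same shares were 26.35% and 40.4%. At 48 of the 75 the highest region of the WT line overlapped that of the mutant line, and at 27 it did not. H3K4me3 regions lay at 815 genes in the WT line (78.1%, 75.5 to 80.6), where 69.9% of autosomal genes had one, and at 807 in the mutant line (77.4%, 74.7 to 79.9), where 69.1% had one. They were shared by 800 genes, which are 98.2% of the 815 and 99.1% of the 807, beside 97.4% and 98.5% over all autosomes. The gene shares rest on the same lists from which chromosome 8 was chosen, and are a description.

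Genes with WDR5 differed in their H3K4me3. All 75 genes with WDR5 in both lines had an H3K4me3 region in both. Of the 195 genes with WDR5 in the WT line only, 193 had one in the WT line, and of the 84 with WDR5 in the mutant line only, 60 had one in the mutant line. Among the 689 genes with no WDR5 region, 487 (70.7%) and 480 (69.7%) had one. Median width was largest at genes with WDR5 in both lines. The median width in the WT line was 1795 bp (quartiles 1414 and 2117), against 1625 bp at genes with WDR5 in the WT line only, 1548 bp at those with it in the mutant line only and 1379 bp (1134 and 1708) at genes with none. The mutant line widths were 1635, 1560, 1468 and 1354 bp. Median H3K4me3 fold ran the other way in the WT line, at 9.34 with WDR5 in both lines and 10.6 with none, and was 10.1 and 10.4 in the mutant line. A wider region can overlap a gene end and a WDR5 region more readily, and this was not tested.

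The protein-coding gene with the WDR5 region of highest fold within 1 kb of a gene end was Rpl13 in both lines. Its region, at chr8:123101920-123103459 in the WT line and chr8:123102200-123103524 in the mutant line, had a fold of 13.3 and 15.0 and spans the start of the gene printed above and Snord68, a small nucleolar RNA gene within it. The H3K4me3 region there had a fold of 5.61 and 9.41. The region shared by Cog4 and Sf3b3, at chr8:110846192-110846969 in the WT line, had a fold of 6.45, and that of the mutant line, at chr8:110845667-110847217, had 12.1. Both regions were stronger in the mutant line.

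The other genes with WDR5 in both lines had folds from 3.35 to 4.84 in the WT line and from 2.25 to 3.64 in the mutant line. The region at Tfdp1 had a fold of 3.98 in the WT line and 2.25 in the mutant line. At Asf1b, which encodes a histone chaperone of replicating chromatin, the folds were 3.98 and 2.84. At Pcm1, a gene for a protein of the centriolar satellites, they were 3.89 and 2.34. These 3 regions were stronger in the WT line, but the genes were ranked by their WT line fold, so this is a description only. In the mutant line the −log10 q was 0.475 at Tfdp1, 2.88 at Asf1b and 0.947 at Pcm1. Cdt1 (3.47 and 3.46) and Slc7a6os (3.66 and 3.64) had near-equal folds, and Map10, which encodes a microtubule-associated protein, had 3.48 and 3.07. At Defa-ps8, an alpha-defensin sequence, the folds were 4.84 and 3.12. At Zfp358, a zinc finger gene, the folds were 3.35 and 2.60, but the highest region lay at the start of the gene's span in the WT line and nearer its end in the mutant line.

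**Figure D5:**
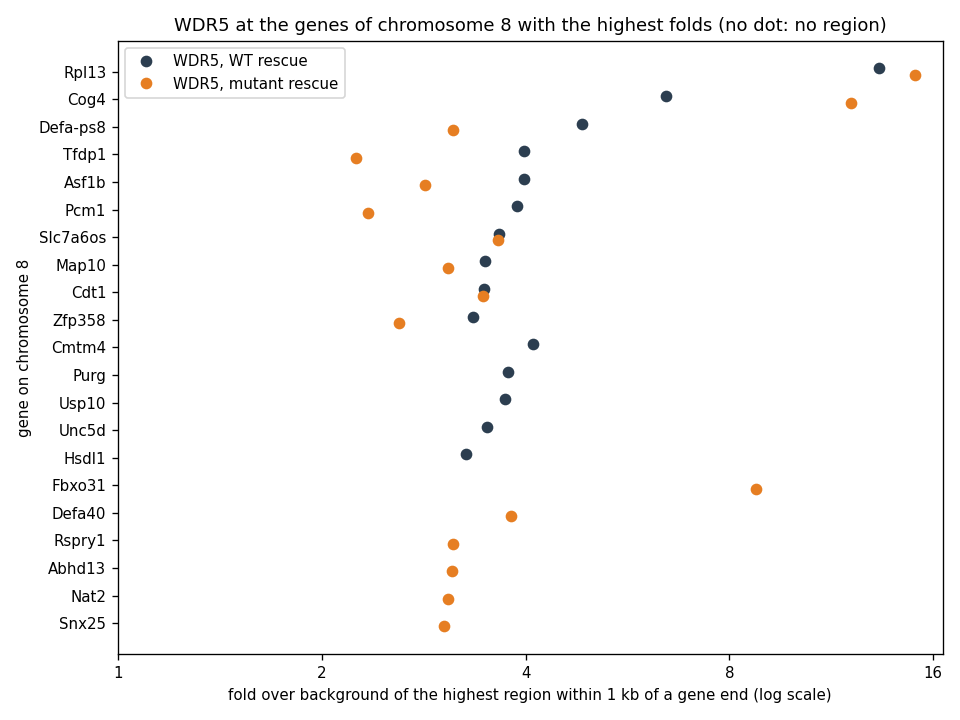
Fold over background of the highest WDR5 region within 1 kb of a gene end (horizontal axis, log scale) for the chromosome 8 genes named in the text by rank (vertical axis), dark for the WT line and orange for the mutant line, 1 library each; a missing dot means no listed region. Rpl13 stands highest at 13.3 and 15.0, most genes found in both lines have folds from 2.25 to 4.84, and Fbxo31 at 8.76 is the highest of those found in the mutant line only.

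Among genes with WDR5 in the WT line only, the folds were 4.10 at Cmtm4, 3.77 at Purg, 3.72 at Usp10, 3.51 at Unc5d and 3.27 at Hsdl1. Cmtm4 encodes a membrane protein of the MARVEL family, Usp10 a deubiquitinase and Unc5d a netrin receptor. Each of these 5 genes had an H3K4me3 region in both lines, with folds between 8.31 and 11.5 in the WT line and between 10.3 and 12.1 in the mutant line. The missing WDR5 region in the mutant line was therefore not matched by a missing H3K4me3 region.

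In the mutant line only, the highest gene was Fbxo31, an F-box gene, with a fold of 8.76. Its region, at chr8:121579055-121579636, also covers the methionine tRNA gene n-TMcat17. The others had folds of 3.80 at Defa40, 3.13 at Rspry1, 3.11 at Abhd13, 3.07 at Nat2 and 3.03 at Snx25. Defa40 is an alpha-defensin gene, and Nat2 encodes an arylamine N-acetyltransferase. Defa40 had no H3K4me3 region in either line, and the region at Nat2 lay at the end of the gene away from its H3K4me3.

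Away from the ends of protein-coding genes, the strongest WDR5 regions of chromosome 8 in the WT line were narrow. One inside B3gnt3, at chr8:71701341-71701623, had a fold of 22.8 in the WT line and 7.06 in the mutant line with the same borders. One inside Rpgrip1l, at chr8:91263142-91263424, had 14.2 and 13.0, and one inside Galntl6, at chr8:58400149-58400426, had 14.1 and 5.58. A region with no gene within 1 kb, at chr8:56812249-56812528, had 15.7 in the WT line, and the overlapping one in the mutant line had 5.70. These 4 were 278 to 283 bp wide in the WT line, whereas the regions at Rpl13 and Cog4 were 1540 and 778 bp wide. On chromosome 8, 6 regions of the WT line and 3 of the mutant line had a width of 270 to 290 bp and a fold of 5 or more. These 4 were chosen for the highest folds of the WT line, so their lower folds in the mutant line are a description only.

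Genes read by RNA polymerase III were counted with a narrower window. Of the 7 tRNA genes of chromosome 8, 2 had a WDR5 region within 200 bp in the WT line and 5 in the mutant line. The neighbouring leucine tRNA genes n-TLcag4 and n-TLcag5 shared 1 region of fold 7.16 in the mutant line, and only n-TLcag4 had one in the WT line, of fold 3.84. The glycine tRNA gene n-TGgcc2 had folds of 5.83 and, in the WT line, 2.61. n-TLcag2 had no region in any of the 4 lists. H3K4me3 regions lay at 4 and 6 of the 7. No share over the tRNA genes of other chromosomes is given here, so these counts are a description only. The WDR5 list of the mutant line was also the longer of the pair, at 26888 against 11095 regions, and the part of list length in these counts was not tested.

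The 5S ribosomal RNA genes form an array on chromosome 8, from 123538784 to 123622046, with 48 annotated copies. Copies of this array are near-identical, so where a read is placed among them is uncertain. A WDR5 region lay within 200 bp of 1 copy in the WT line and of 3 in the mutant line, and an H3K4me3 region within 200 bp of 8 and 9. No share over other genes at this window is given here. In all, 5 and 6 WDR5 regions and 18 and 15 H3K4me3 regions lay in the array. n-R5s149, at the edge of the array, had WDR5 in both lines, with folds of 4.24 in the WT line and 5.80 in the mutant line. n-R5s108 and n-R5s142 had it in the mutant line only, with folds of 4.45 and 5.45.

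The gene lists chosen for chromosome 8 differed in how many members had WDR5. WDR5 occupied more members in the WT line than in the mutant line in 6 of the 11 lists, which should be read beside the 25.9% and 15.2% of all chromosome 8 genes. The H3K4me3 counts of the lists should be read beside 78.1% and 77.4% of all chromosome 8 genes. Of 9 ribosomal protein and translation genes, 5 had WDR5 in the WT line and 3 in the mutant line, with 3 in both. Rpl13 was among those in both, as was Kars, with folds of 2.27 and 3.01 at neighbouring regions that did not overlap. Eif4ebp1, a repressor of cap-dependent translation, and Nob1, a factor that processes ribosomal RNA, had WDR5 in the WT line only, at 2.41 and 2.12. Aars, Farsa and Calr had no WDR5 region, and all 9 genes had H3K4me3 in both lines.

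Of 10 genes for H3K4 methylation and chromatin regulators, 4 had WDR5 in the WT line and none in the mutant line. They were Kat6a, a histone acetyltransferase (fold 3.16), Hmgb2, a chromatin-binding protein (3.004), Ctcf, the insulator-binding factor (2.34), and Ing1, a reader of methylated H3K4 (1.75). Of the 4, only Kat6a had a −log10 q of at least 2, and none of the WT line regions at mitochondrial or stress genes given further on had one. Ash2l, which encodes another core subunit of the KMT2/SETD1 complexes, had an H3K4me3 region in both lines, of fold 9.29 and 9.59, and no WDR5 region. Nsd3, Smarca5, Gatad2a and Setd6 also had H3K4me3 in both lines and no WDR5. Zfhx3 had neither at its gene ends.

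Among 7 pluripotency and stem-cell genes, 2 had WDR5 in each line and Tfdp1 was the only one in both. Klf2, a naive pluripotency factor, had a fold of 2.69 in the WT line only, and Smad1, a transducer of BMP signals, had 2.45 in the mutant line only. Zfp42, which encodes REX1, Cdh1, the E-cadherin gene, Sall1 and E2f4 had none. All 7 had H3K4me3 in both lines. Its fold at Zfp42 was 2.62 in the WT line and 3.56 in the mutant line. At E2f4 the highest H3K4me3 region lay at a different end of the gene in each line.

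Of 13 lineage regulators, H3K4me3 lay at 13 in the WT line and 12 in the mutant line, and WDR5 at 1 in each. The 13 include the Irx3, Irx5 and Irx6 cluster of homeobox genes, Hand2 of heart and limb mesoderm, and the Foxf1, Foxc2 and Foxl1 cluster. Sox1, a neuroectoderm factor, had WDR5 in the mutant line only (fold 2.67), and Foxl1 in the WT line only (2.94). Nanos3, a germ cell gene, had an H3K4me3 region in the WT line only, 584 bp wide with a fold of 2.41. That region had a −log10 q of 7.34. No region was listed there in the mutant line, whose signal at this gene was not measured here.

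WDR5 was found at some members of most of the remaining lists. Of 5 mitochondrial respiration genes, 3 had it in the WT line (Cox4i1, Ndufa13 and Coq9) and 1 in the mutant line (Ndufa13, with folds of 2.62 and 2.15 at regions that did not overlap). Neither proteasome gene, Psmd7 or Psmb10, had it. Of 8 immediate-early and stress genes, Herpud1 (2.20) and Gdf15 (2.56) had it in the WT line and none in the mutant line, and Junb, Jund, Mt1, Mt2, Nqo1 and Hmox1 had none. Of 6 DNA repair and cell death genes, Mcph1 had it in both lines (2.17 and 2.93) and Sprtn in the mutant line (1.97). Of 11 genes of differentiated cells, Acta1 (2.06) and Col4a1 (2.16) had it in the WT line and Angpt2 (1.85) in the mutant line. H3K4me3 was at every gene of the first 4 of these lists in both lines, and at 10 of the 11 genes of differentiated cells. Cdh5, the VE-cadherin gene, had none. Of the 8 folds in the WT line among them, 6 lay below the chromosome's median of 2.47.

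The defensin genes, which encode antimicrobial peptides, all lie in bins 4 and 5. Of 53, 1 had WDR5 in the WT line and 9 in the mutant line, beside 25.9% and 15.2% of all chromosome 8 genes. H3K4me3 lay at 2 and 3 of the 53, beside 78.1% and 77.4%. Apart from Defa-ps8 and Defa40, the WDR5 regions of the mutant line were those at Defa24, Defa26, Defb2, Defb8, Defb12, Defb13 and Defb40. Their folds ran from 1.77 to 2.77 and their −log10 q from 0 to 0.622, so none of these 7 reached a −log10 q of 2. Defb14 had H3K4me3 in both lines, with folds of 7.70 and 4.91. Of 5 olfactory receptor genes, Olfr372 had WDR5 in the WT line (2.47), and Olfr370 and Olfr374 had H3K4me3 in both lines.

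The highest H3K4me3 folds of chromosome 8 in the WT line lay at narrow regions away from the ends of protein-coding genes. The first, at chr8:83756775-83757027 with no gene within 1 kb, had a fold of 46.7 in the WT line and 52.9 in the mutant line. A region inside Sh3rf1, which encodes a ubiquitin ligase, at chr8:61295481-61295884, had 36.3 and 43.3. A region at chr8:15519779-15520124 had 39.0 and 19.7, one beside the non-coding gene Gm39123 had 36.3 and 18.9, and one at chr8:41426022-41426383 had 32.3 and 20.3. Each of these 5 was listed in both lines, and the last 3 were lower in the mutant line. The 5 were chosen for the highest folds of the WT line, so the lower folds are a description only.

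The widest H3K4me3 regions of the WT line stood at gene ends. The region at Sall1, a zinc finger factor of stem cells and kidney, was 3778 bp wide in the WT line and 3507 bp in the mutant line. Irf2bp2 had 3736 and 3096 bp, Zfp703 had 3570 and 3125 bp, and Dusp4, a phosphatase of MAP kinases, had 3393 and 3332 bp. The region shared by Triml1 and Triml2 was 3370 and 3030 bp wide. All 5 were chosen for their width in the WT line and were narrower in the mutant line. Those at Sall1 and Dusp4 were also among the 5 widest of the mutant line. The narrower widths are a description only. Among the 5 widest of the mutant line, those inside Cdyl2 and Hmgxb4 were wider there, at 3238 and 3126 bp. The overlapping region of the WT line was 2661 and 2914 bp wide. The mutant line region at chr8:33991233-33994626, 3394 bp wide, overlapped 2 regions of the WT line. The one with the higher fold was 1340 bp wide. These regions were chosen for their width in the mutant line, so their widths too are a description only.

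H3K4me3 at a gene end in 1 line only was rare, at 15 of 1043 genes in the WT line and 7 in the mutant line, and mostly weak. It was also rare over all autosomes, at 376 and 209 of 20665 genes. In the WT line the highest were Hook2 (fold 6.48), Asah1 (4.66), Zfp469 (4.62), 1700029H14Rik (3.85) and Dlc1 (3.46). The highest of the mutant line were Cldn24 (5.18), Pmfbp1 (3.85), Ces5a (3.63), Syce1l (3.20) and Scrg1 (2.99). The regions at Hook2, Asah1 and Cldn24 were overlapped by one of the other line's regions that did not reach within 1 kb of the gene end. None of these 10 genes had a WDR5 region in either line, as was the case for 689 of the 1043 genes of chromosome 8.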

How the data were processed

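ChIP-seq for WDR5 and H3K4me3 followed crosslinking in 1% PFA for 10 min. Per the submitters' processing notes, the tools were MACS2 2.1.2, BWA 0.7.17-r1188, Picard and SAMtools, with mm10; their settings and the control used for peak calling are not given in the sources used here. The authors deposited 1 narrowPeak list per antibody and line, so peaks were listed per library and not on pooled samples. Each deposited region carries a fold over background (a ratio), a −log10 p and −log10 q value, and a score, which was not used. The lowest −log10 p in the 4 deposited lists is 2.00. A list has no read totals, so its length, the folds and the significance all vary with a depth that is unknown.

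Regions on chromosomes 1 to 19 were counted per chromosome and per 5 Mb bin by their middle, and overlaps of at least 1 bp were found with bedtools 2.31.1. Python 3.11.15, numpy 2.4.6, pandas 2.3.3, scipy 1.17.1 and matplotlib 3.10.9 were used. A chromosome's span runs to the end of its last region in the 4 lists. Protein-coding genes came from the RefSeq table of GRCm38.p6, which gives no strand, so regions within 1 kb of either end were assigned to a gene. Exact Clopper-Pearson 95% intervals cover counting error only. With 1 library per group no test between lines was made. The counting was tested on simulated data.

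The members and lists were chosen with earlier results of these data known. The genes named are the 10 of highest WT line fold with WDR5 in both lines, the 6 highest in each line only, the 5 regions of highest fold per list, the 5 widest H3K4me3 regions per list, the 5 genes of highest fold with H3K4me3 in 1 line only, and the members of the gene lists; a few of these genes are not reported here. The run rule, the fold classes, the 5S genes, the most significant H3K4me3 regions and the use of start sites were chosen after values were seen. Alternatives changed the threshold, list length, unit, overlap, window and frame, or left out the densest bin, the stretch near 20 Mb or narrow strong regions. The 2 input libraries were not analysed here.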

Additional observations from a re-analysis of the deposited data

How the results depend on the processing

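With 1 library per group, no library could be left out, and no paired analysis was possible because each antibody has a single library per line. Of 124 alternatives, 68 left the value inside the main 95% interval or, for a count of genes, within 1.5 times, and 2 turned a direction. The share of autosomal regions on chromosome 8 was above 5.26% under all alternatives run, though 2 intervals below include it. With a −log10 p of at least 5 it was 9.50% and 9.08% for WDR5 in the WT and mutant line. With a −log10 q of at least 2 it was 9.67% for WDR5 in the mutant line, and without the stretch near 20 Mb as well it was 5.67% (4.38 to 7.21) and 6.43% (5.11 to 7.97) for WDR5 and 6.42% and 6.29% for H3K4me3. Without the densest bin it was 8.22%, 6.48%, 6.14% and 6.05%, in the order WDR5 then H3K4me3, WT then mutant line. Without the stretch alone H3K4me3 had 6.47% and 6.35%, over all chromosomes 6.46% and 6.35%, and by covered base pairs 6.41% in the WT line. Cutting both WDR5 lists to equal length gave 7.51% in the mutant line. The mutant to WT ratio of WDR5 regions, relative to the other autosomes, was 0.952 at a −log10 p of at least 5 and 0.834 at equal length. It was 1.08 (0.824 to 1.42) at a −log10 q of at least 2 and 1.14 (0.807 to 1.62) without the stretch as well, so its direction turned, with intervals that hold 1; the cause was not tested. The share of WDR5 regions past a −log10 q of 2 was 6.77% and 4.38% without the stretch, and 14.6% in the mutant line at equal length, where H3K4me3 had 93.6%. A −log10 p of at least 5 in its place gave 20.1% and 12.5% for WDR5 and 82.8% and 77.2% for H3K4me3. Overlap between the lines, with both lists filtered, was 26.5% and 22.5% for WDR5 and 79.6% for H3K4me3 in the mutant line at a −log10 q of at least 2. It was 17.4%, 14.9% and 83.0% at a −log10 p of at least 5. At equal length it was 7.93% and 8.97% for WDR5 and 77.8% and 79.1% for H3K4me3, and with a reciprocal overlap of 50% it was 6.49%, 3.43%, 61.7% and 60.6%. Against the whole list of the other line and without the stretch, the regions past a −log10 q of 2 were overlapped in 45.5% of cases in the mutant line. The share of WDR5 regions on H3K4me3 was 74.5% and 55.8% for a −log10 q of 2 or more, 71.3% and 39.7% at a −log10 p of at least 5, and 4.94% and 3.16% with a reciprocal overlap, with 19.03% in the mutant line at equal length. Genes with WDR5 fell from 270 and 159 to 36 and 29 for a −log10 q of 2 or more, to 96 and 48 at a −log10 p of at least 5, and to 104 in the mutant line at equal length. These filtered counts are of chromosome 8 only. The stretch and the start sites were added after the data were seen. By start sites, 24.8% and 14.2% of 725 genes had WDR5, against 17.15% and 9.72% of 15732 genes on the other autosomes. Depth is unknown and limits which weak regions were listed.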
